A study of Mus musculus with 40 samples.

Results

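Ank1, Rhd, Kel, Icam4, Btnl10 and Tspo2, a set of 6 genes of the red cell membrane and surface, were followed in the bone marrow of mice given cyclophosphamide. They were chosen by gene symbol, with earlier results of these data known. They are carried by 8 of the 13443 probes of the array, 1 probe each for 5 genes and 3 for Rhd, and all 6 genes could be tested among 5297 genes and unnamed probes. On day 2 after the drug all 6 were lower than in untreated mice, by between 1.54-fold for Tspo2 and 3.30-fold for Btnl10 (3.23-fold for the best measured Rhd probe). Of all tested, 9.61% were lower then. The other Rhd probe with values, measured in 14 mice, did not show the same course. On day 5, 4 of the 5 mice had values near those of untreated mice in all 6 genes, while mouse 4 of that group had low values in all 6.

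The marrow cells came from DBA/2 mice, an inbred strain, in 4 groups of 5 mice. One group was untreated (control), and the other groups had received 83 mg/kg cyclophosphamide into the peritoneum and were harvested 1, 2 or 5 days later. No sham-injected group was analysed here, so injection itself cannot be told apart from the drug. RNA of each mouse, labelled with Cy5, was hybridised on 2 arrays against a common pool of marrow RNA labelled with Cy3, which makes 40 arrays. The pool is described as untreated marrow in 1 label field and as cyclophosphamide-treated in another, and it cancels in differences between groups. The mice of a group are labelled as independently harvested, and n counts mice throughout.

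Every value is the authors' log ratio of mouse over pool, taken here as log2, so 0 means a level equal to that of the pool and -1 a level 2-fold below it. The sources used here do not name the base of the logarithm. With natural logarithms every fold would be larger than stated. A ratio does not tell how abundant a transcript is, so levels are compared between mice and not between genes. In whole marrow, fewer cells of a type and less RNA per cell cannot be told apart.

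The red cell membrane is a lipid bilayer tied to a net of spectrin and actin beneath it. Ankyrin-1, encoded by Ank1, is the adaptor that fastens spectrin to the anion exchanger of the membrane, and its loss makes red cells fragile and spherical. The Rh protein (Rhd) and its partner Rhag sit in the same complex, and Kel is a zinc endopeptidase that carries the Kell blood group in humans. Icam4 carries the Landsteiner-Wiener blood group in humans and binds integrins, through which developing erythroblasts hold to the central macrophage of the erythroblastic island. Btnl10 belongs to the butyrophilin-like family, as does the red cell surface protein Ermap, and Tspo2 is an erythroid relative of the translocator protein that binds cholesterol. Marrow erythroblasts make these proteins as they mature, under transcription factors such as Gata1 and Klf1. Cyclophosphamide is an alkylating prodrug that kills dividing cells and lowers the number of marrow cells for some days.

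Because the 6 genes moved together, the stretch before the start site is shown for the 5 with an entry in the RefSeq promoter table (GRCm38.p6, from the C57BL/6J reference, not from DBA/2). The GATA motif is taken as AGATAA with A or T as the first base and A or G as the last, 4 forms in all. Each line gives the 100 bases before the annotated start, 5′ to 3′ on the gene's strand, and capitals mark matches on either strand to the GATA motif and to the Klf1 motif CCNCNCCC. They lie at chr4:134864436-134864535 (plus strand) for Rhd, chr6:41704326-41704425 (minus) for Kel, chr9:21029332-21029431 (plus) for Icam4, chr11:58917808-58917907 (plus, the more upstream of 2 annotated starts) for Btnl10 and chr17:48451502-48451601 (minus) for Tspo2.
Rhd: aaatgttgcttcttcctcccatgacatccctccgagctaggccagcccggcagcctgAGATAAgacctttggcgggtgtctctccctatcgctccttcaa
Kel: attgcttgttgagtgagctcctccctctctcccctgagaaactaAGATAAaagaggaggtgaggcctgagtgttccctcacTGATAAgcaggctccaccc
Icam4: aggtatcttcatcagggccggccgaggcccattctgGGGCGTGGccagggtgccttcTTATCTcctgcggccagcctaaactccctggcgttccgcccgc
Btnl10: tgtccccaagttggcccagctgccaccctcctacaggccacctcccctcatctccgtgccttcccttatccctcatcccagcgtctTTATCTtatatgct
Tspo2: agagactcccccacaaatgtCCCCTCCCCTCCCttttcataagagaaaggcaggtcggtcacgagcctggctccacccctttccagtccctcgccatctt

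In these lines the first base of the GATA match lies at -43 in Rhd, at -56 and -19 in Kel, at -43 in Icam4 (as TTATCT, the other strand of AGATAA) and at -14 in Btnl10 (also as TTATCT), counted from the base before the start site as -1. Counted from the other annotated start of Btnl10, the same match lies at -163, and the 100 bases before that start hold no match. Which start marrow uses was not tested. Tspo2 has no GATA match and 2 overlapping Klf1 matches at -80 and -75, and Icam4 has a Klf1 match at -64 on the other strand. Over the full window of the table, 250 bases before to 50 after a start, 4 of the 5 genes hold a GATA match and 3 hold a Klf1 match, against 29.8% and 49.5% of all 32851 promoters of that length. A match is a description of the letters and does not show that a factor binds there.

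Ank1, the skeleton adaptor, was lower on day 2. The untreated mice had log2 ratios of -0.62, -0.38, -0.33, -0.42 and 0.27, the day 1 mice -0.56, -1.06, -0.89, -0.47 and -1.45, the day 2 mice -1.36, -0.91, -2.01, -1.31 and -0.97, and the day 5 mice -0.19, -0.26, -0.27, -1.58 and -0.18 (mice 1 to 5 in order). All 5 day 2 mice lay below every control mouse, and the day 1 mice overlapped both groups. The mean fell by 1.01 ± 0.25 on the log2 scale on day 2 (SE of the limma fit, n = 5 mice per group, 2.02-fold, limma adjusted p = 0.00637). On day 1 the difference was -0.59 ± 0.25 (adjusted p = 0.0975), which did not pass the threshold of 0.05.

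Rhd has 3 probes, and they are given apart. Probe 031C19 had a value on all 40 arrays, probe 017E20 on 25 arrays from 14 mice, and probe 009I18 on none. By 031C19 the control mice had log2 ratios of -0.33, -0.39, 0.07, -0.26 and -0.55, the day 1 mice -0.26, -1.47, -0.97, -0.49 and -1.55, the day 2 mice -2.09, -2.33, -2.59, -1.32 and -1.59, and the day 5 mice -0.04, -0.54, -0.20, -1.63 and 0.02. The day 2 mice lay below all control mice, and 4 of the 5 lay below all day 1 mice. The fall on day 2 was 1.69 ± 0.28 on the log2 scale (limma adjusted p = 0.000319), and the difference on day 1, -0.65 ± 0.28, did not pass (adjusted p = 0.108).

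Probe 017E20 did not show the same course. It read 0.02, -0.03, -0.34 and -0.06 in 4 control mice, -0.50, 0.03 and -0.28 in 3 day 1 mice, -0.71, -0.36, -0.44, 0.18 and 0.00 in the 5 day 2 mice and -0.05 and 0.98 in 2 day 5 mice, with the remaining mice blank. Its control, day 1 and day 2 values overlapped, and it was left out of the fit of single probes, which asked for at least 3 mice in every group. In a fit that asked for 2 (6350 probes) its change on day 2 was -0.17 ± 0.20 (limma adjusted p = 0.641, 95% interval -0.58 to 0.25), and 0 of its 6 differences between groups passed, with adjusted p from 0.0505 to 0.992. At an unadjusted p under 0.05, 3 did, those of day 5 with control, day 1 and day 2, and they rest on 2 day 5 mice. On this probe the day 2 mean was -0.27 ± 0.36 (SD, n = 5), against -0.10 ± 0.16 (SD, n = 4) in controls. The symbol average used for gene counts mixes both probes, in a mouse that has both, and so gave a smaller fall on day 2 of 0.95 ± 0.28 (limma adjusted p = 0.022) than 031C19 alone. Which probe follows Rhd RNA more closely was not tested.

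Kel, the endopeptidase, was the most even of the 6 in untreated mice together with Tspo2. The control mice had log2 ratios of -0.51, -0.37, -0.23, -0.32 and -0.21, the day 1 mice -0.35, -0.67, -0.88, -0.50 and -1.09, the day 2 mice -1.06, -0.86, -1.83, -1.42 and -1.18, and the day 5 mice 0.10, -0.34, -0.19, -1.57 and 0.02. The day 2 mice lay below all controls, and 3 of the 5 lay below all day 1 mice. Kel fell by 0.94 ± 0.23 on the log2 scale on day 2 (1.92-fold, limma adjusted p = 0.00616), while the day 1 difference of -0.37 ± 0.23 did not pass (adjusted p = 0.275).

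Icam4, the adhesion molecule, was already lower on day 1. The control mice had log2 ratios of 0.05, -0.01, 0.33, 0.19 and -0.04, the day 1 mice -0.19, -0.59, -0.97, -1.20 and -1.32, the day 2 mice -1.55, -1.70, -1.98, -0.59 and -0.22, and the day 5 mice 0.15, -0.16, -0.01, -1.39 and 0.01. Every day 1 mouse and every day 2 mouse lay below every control mouse, and 3 of the 5 day 2 mice lay below all day 1 mice. Icam4 fell by 0.96 ± 0.29 on the log2 scale on day 1 (1.94-fold, limma adjusted p = 0.026) and by 1.31 ± 0.29 on day 2 (2.48-fold, adjusted p = 0.00354). The 2 arrays of a mouse differed in Icam4 by a median of 0.09 and by up to 0.87, in day 2 mouse 4, the widest gap among the single-probe genes. Icam4 had a value on 38 arrays, and control mouse 3 and day 1 mouse 1, the highest of their groups, rest on 1 array each.

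Btnl10 had the largest change of the 6 genes on day 2 against control, close to that of Rhd probe 031C19, which fell further under quantile normalization. The control mice had log2 ratios of -0.69, -0.18, -0.58, -0.37 and 0.05, the day 1 mice -0.60, -1.54, -1.46, -1.06 and -1.43, the day 2 mice -1.97, -1.91, -2.47, -1.87 and -2.17, and the day 5 mice -0.16, -0.19, -0.39, -1.97 and -0.20. The day 2 mice lay below all control and all day 1 mice (1.98% of all tested lay wholly below day 1), and 4 of the 5 day 1 mice lay below all controls. Btnl10 fell by 0.86 ± 0.26 on the log2 scale on day 1 (1.82-fold, limma adjusted p = 0.023) and by 1.72 ± 0.26 on day 2 (3.30-fold, adjusted p = 0.00011). Only 5 of the 5297 genes and unnamed probes tested had a more negative change on day 2.

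Tspo2 had the smallest change of the 6 genes on day 2 against control. The control mice had log2 ratios of 0.11, -0.01, 0.24, 0.28 and 0.07, the day 1 mice -0.12, -0.01, -0.17, -0.35 and -0.78, the day 2 mice -0.37, -0.34, -0.74, -0.52 and -0.48, and the day 5 mice 0.11, 0.18, 0.11, -1.30 and 0.13. All day 2 mice lay below all controls, within the range of the day 1 mice. Tspo2 fell by 0.62 ± 0.20 on the log2 scale on day 2 (1.54-fold, limma adjusted p = 0.0351), and the day 1 difference of -0.42 ± 0.20 did not pass (adjusted p = 0.154).

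**Figure D1:**
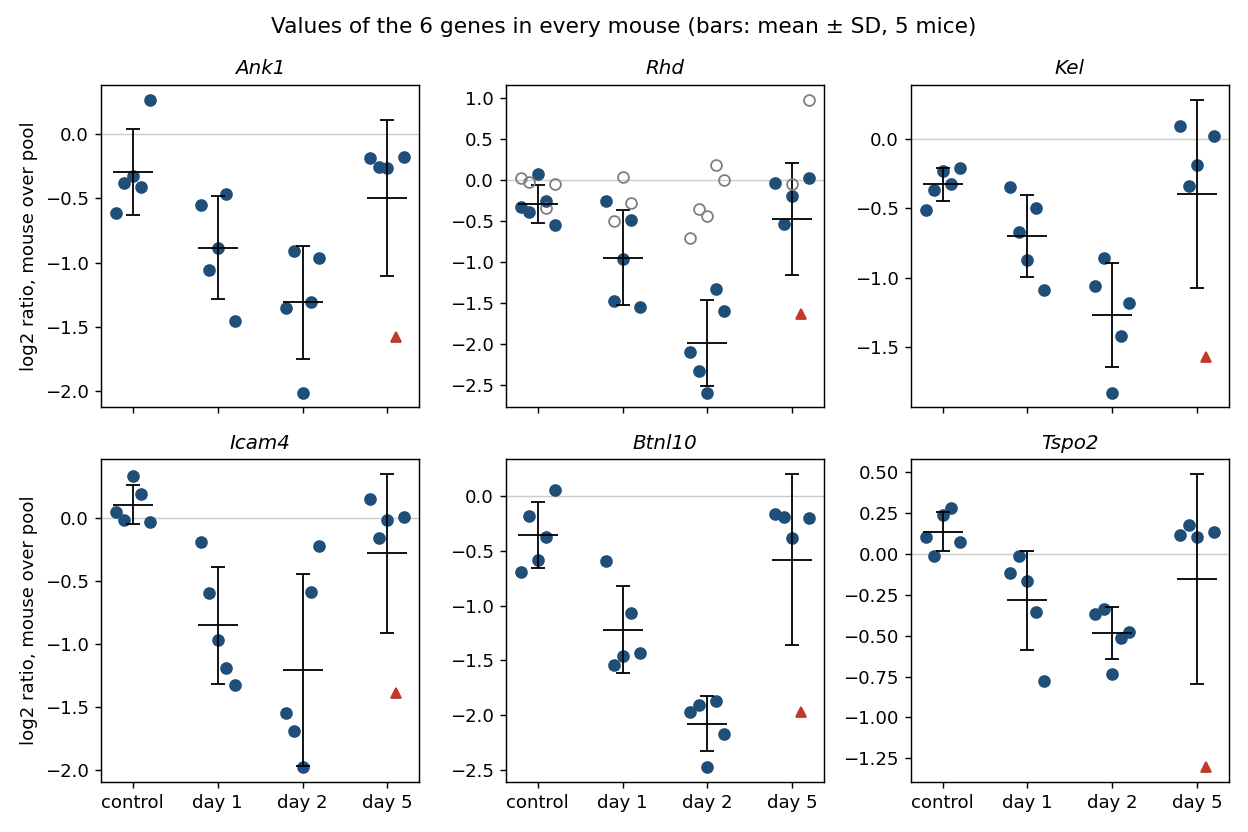
Log2 ratio of mouse over pool (vertical axis, linear in log2, scaled separately for each gene) for each of the 6 genes in control, day 1, day 2 and day 5 mice. Each point is 1 mouse (mean of its 2 arrays, or the 1 value where the other array was blank), the bars are mean and SD over 5 mice, open circles in the Rhd panel are probe 017E20 where it had a value (filled points are 031C19, to which the bars belong), and the red triangle is day 5 mouse 4. The filled day 2 points lie below the filled control points in every panel, while the open circles of Rhd overlap, and the triangle lies at -1.30 or lower throughout.

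Counted together, 2 of the 6 genes were lower on day 1 (Icam4 and Btnl10), where 8.38% of all genes and unnamed probes tested were lower. On day 2, 6 of 6 were lower, against 9.61% of all tested (9.72% in the fit of single probes). The 6 were chosen with earlier results of these data known, so the shares of all tested describe and do not test the set. Complete separation from the controls held for 6 of 6 on day 2, with Rhd read by 031C19, where 9.40% of all tested lay wholly below the controls. On day 1 it held for Icam4 alone, with a background of 6.10%. The day 1 calls rest on few mice, since leaving out 1 of control mice 3 and 5 or day 1 mice 2 to 5 took the call from Icam4, Btnl10 or both (limma adjusted p from 0.0506 to 0.0733 over the alternatives in which a call was lost). Leaving out day 5 mouse 4 gave 4 calls (21.2% of all then tested, either direction). That mouse is in neither group, so the day 1 differences stayed and the spread shared by the fit and the genes tested changed. On day 2, leaving out control mouse 3, day 2 mouse 1 or day 2 mouse 3 left 4 of 6 (11.3% to 15.3% of all then tested changed in either direction), without the Rhd average and Tspo2, whose adjusted p then lay between 0.0526 and 0.0893. The median change of the 6 was -0.57 on day 1 and -0.98 on day 2, while that of all tested was -0.02 on both days.

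The moderated F test over the 4 groups passed for 5 of the 6, Ank1 (limma adjusted p = 0.0113), Rhd (0.0473), Kel (0.0084), Icam4 (0.0052) and Btnl10 (8.28e-05), and not for Tspo2 (0.0991). In all tested, 30.7% passed.

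The step from day 1 to day 2 was downward in all 6 genes but passed in 0 of 6 by limma, where 2.10% of all tested changed in either direction. At an unadjusted p under 0.05, 2 genes were lower, Kel and Btnl10, as were 6.87% of all tested. Btnl10 differed by -0.86 ± 0.26 (limma adjusted p = 0.0824) and Rhd probe 031C19 by -1.04 ± 0.28 (adjusted p = 0.0551 in the fit of single probes). The other gene-level differences lay between -0.57 for Kel and -0.20 for Tspo2. Without day 5 mouse 4, 2 of 6 passed, Kel at -0.57 (adjusted p = 0.0416) and Btnl10 at -0.86 (adjusted p = 0.00415), while 3.44% of the 4859 then tested changed in either direction. That mouse is in neither group, so the differences stayed as they were. Leaving it out changed the spread shared by the fit and the set of genes tested.

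One mouse sets the reading of day 5. Mouse 4 had a log2 ratio of -1.97 for Btnl10 where the other day 5 mice had -0.39 to -0.16, -1.63 for Rhd probe 031C19 where they had -0.54 to 0.02, and -1.57 for Kel where they had -0.34 to 0.10. For Ank1 it had -1.58 against -0.27 to -0.18, for Icam4 -1.39 against -0.16 to 0.15, and for Tspo2 -1.30 against 0.11 to 0.18. It was thus the lowest day 5 mouse in 6 of 6 genes, while it was lowest in 27.9% of the 3632 genes with a value in every day 5 mouse and the other day 5 mice were lowest in 16.7% to 19.1%. Ordered by how far mouse 4 lay below the mean of the other 4, the 6 genes took places 4 to 16 of those 3632. Because mouse 4 was picked out by these values, results without it are given as a description.

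With all 5 mice, 0 of 6 genes differed from control on day 5 by limma (0 also at an unadjusted p under 0.05), where 1.72% of all tested were lower and 2.62% changed in either direction. The changes ran from -0.39 (95% interval -0.99 to 0.22) for Icam4 to -0.07 (-0.54 to 0.41) for Kel, and the interval left out a fall as large as that of day 2 in Ank1, Rhd, Kel, Icam4 and Btnl10 but not in Tspo2 (-0.71 to 0.13). Without mouse 4 the changes against control were 0.07 for Ank1, 0.10 for Rhd probe 031C19, 0.23 for Kel, -0.11 for Icam4, 0.12 for Btnl10 and -0.004 for Tspo2, with adjusted p from 0.854 to 0.998. The sign turned for Ank1, Rhd, Kel and Btnl10, none of them called in either case.

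Against day 2, 4 of 6 genes were higher on day 5, where 10.3% of all tested were higher. Btnl10 rose by 1.499 ± 0.26 on the log2 scale (limma adjusted p = 0.000224), Icam4 by 0.93 ± 0.29 (0.0265), Kel by 0.87 ± 0.23 (0.00775) and Ank1 by 0.81 ± 0.25 (0.0204). Rhd probe 031C19 rose by 1.51 ± 0.28 (adjusted p = 0.000528 in the fit of single probes, background 10.6%), whereas the Rhd average (0.76 ± 0.28, adjusted p = 0.0598) and Tspo2 (0.33 ± 0.20, adjusted p = 0.273) did not pass. The median of the 6 was 0.84 and that of all tested 0.03. Without mouse 4 all 6 passed, with changes from 0.62 for Tspo2 to 1.85 for Btnl10, while 18.4% of the 4859 then tested changed in either direction (20.8% with it). Mouse 4 was picked out by its low values in these same genes, so leaving it out raises the day 5 means by construction. Without day 2 mouse 3, or without day 5 mouse 2, 2 of 6 passed (16.3% and 18.9% of all then tested, either direction), and Ank1 (adjusted p 0.079 and 0.0502) and Icam4 (0.0951 and 0.0522) did not.

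Against day 1, 0 of 6 were higher on day 5 by limma, where 12.2% of all tested were higher and 25.3% changed in either direction. At an unadjusted p under 0.05, 1 gene was higher, Btnl10 at 0.64 ± 0.26 (limma adjusted p = 0.0723). The share of all tested at that unadjusted threshold was not computed for this comparison, so nothing is read from the count. Without mouse 4, 6 of 6 were higher, from 0.42 for Tspo2 (adjusted p = 0.0212) to 0.99 for Btnl10 (adjusted p = 0.000327), while 1068 of the 4859 then tested changed in either direction. Here too the mouse left out was picked by its low values in the genes tested, so these 6 calls are no separate support. Without day 1 mouse 1, which had the highest day 1 value in 4 of 6 genes, 1 of 6 passed (30.2% of all then tested). The comparisons with days 1 and 2 share the day 5 mice, so they do not stand apart from each other.

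**Figure D2:**
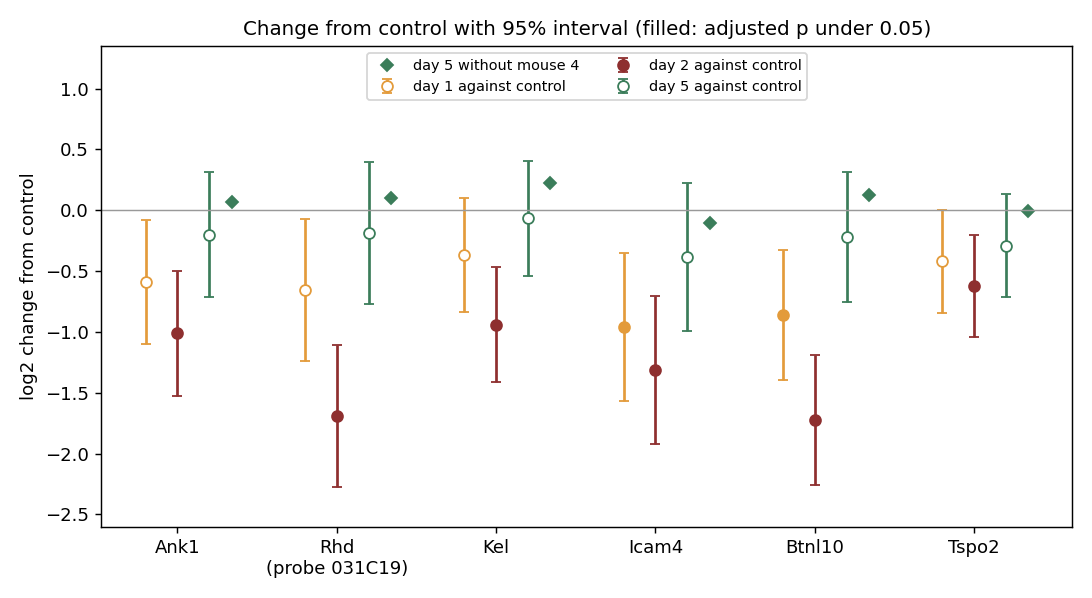
Change from control on the log2 scale (vertical axis) for each gene on days 1, 2 and 5, with the 95% interval of the limma fit over 5 mice per group and filled circles where the adjusted p was under 0.05. Diamonds give the day 5 change without mouse 4 (no interval drawn); day 2 is filled for all 6 genes, day 1 for Icam4 and Btnl10, and the diamonds lie between -0.11 and 0.23.

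Mouse 4 was low in other erythroid genes as well. The erythroid lists other than the 6 (membrane skeleton, surface and transport, haem and iron, globins, enzymes, transcription factors, maturation) held 23 genes measured in it and in at least 3 other day 5 mice. It lay below all of these other mice in 16, within their range in 4 and above it in 3 (Actb, Slc2a1 and Cpox). Mgst3, a glutathione transferase, read -1.78 against -0.15 to 0.29, Alas2, which starts haem synthesis, -1.66 against -0.97 to -0.43, Fech, which inserts the iron, -1.24 against -0.39 to -0.21, and Gata1 -1.02 against -0.51 to -0.20.

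Over all genes mouse 4 stood at the edge of its group more often than the other day 5 mice, lowest in 27.9% and highest in 31.9% of the 3632 genes (13.5% to 19.4% highest for the others). Its correlation with the mean of the other day 5 mice was 0.71 over 2979 genes (0.67 to 0.83 for the others), and 0.06 with the day 2 mean. The mean of its mitosis genes lay at 0.08, within the -0.07 to 0.19 of the other day 5 mice, and macrophage genes lay at -0.42, within -0.62 to -0.16. Its B cell precursor genes (2 measured) were lower, at -1.82 against -1.499 to -0.34, and its late neutrophil genes (7 measured) higher, at 0.22 against -0.17 to -0.02. The part of these in the low erythroid values was not tested.

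**Figure D3:**
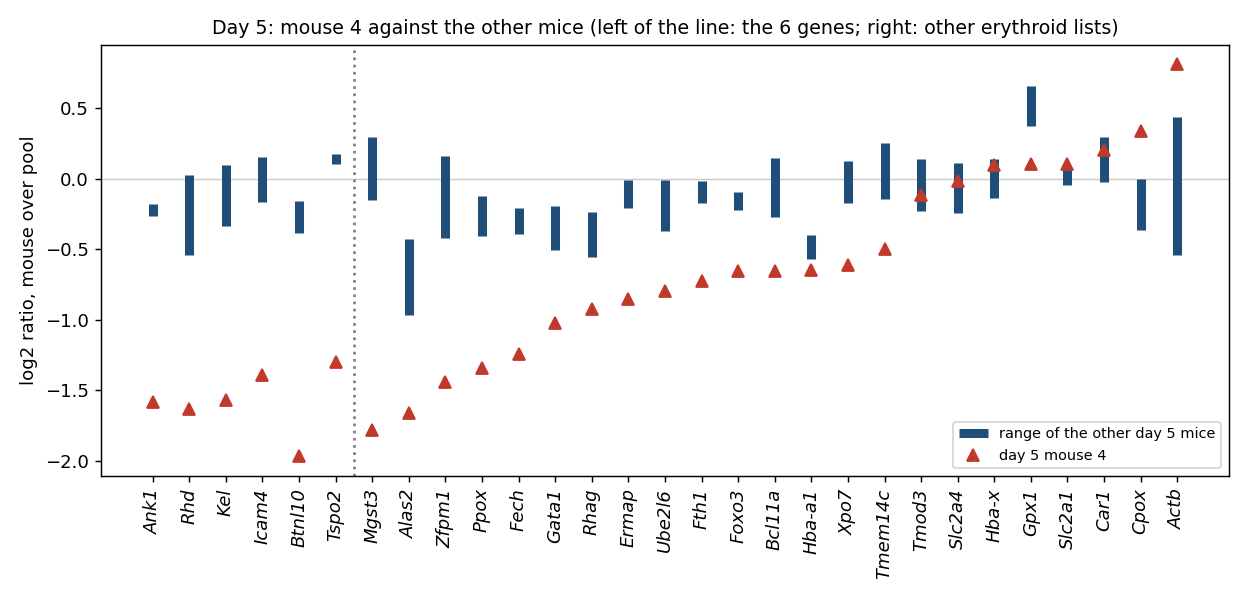
Log2 ratio of mouse over pool on day 5 (vertical axis) for the 6 genes (left of the dotted line, Rhd by probe 031C19) and 23 genes of other erythroid lists (right). Bars span the lowest to the highest of the other day 5 mice (3 or 4), and triangles are mouse 4, which lies below the bar in all 6 genes and in 16 of the 23.

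Single mice also stood at the edge on other days. Day 2 mouse 3 was the lowest of its group in 6 of 6 genes (and in 19.7% of all genes measured in every day 2 mouse), and day 1 mouse 5 was the lowest in 5 of 6 (10.6% of all). Day 1 mouse 1 was the highest in 4 of 6 (26.2% of all). Pearson's r between pairs of the 6 over the 20 mice ran from 0.73 to 0.94 (15 pairs, median 0.85), was highest for Ank1 with Kel, and had a median of 0.85 without day 5 mouse 4. After each group's mean was taken off, r ran from 0.58 to 0.90 (median 0.71) with day 5 mouse 4 and from 0.19 (Btnl10 with Tspo2) to 0.81 (Ank1 with Kel), with a median of 0.47, without it. The values of a pair come from the same arrays and 4 shared groups, so r is a description.

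**Figure D4:**
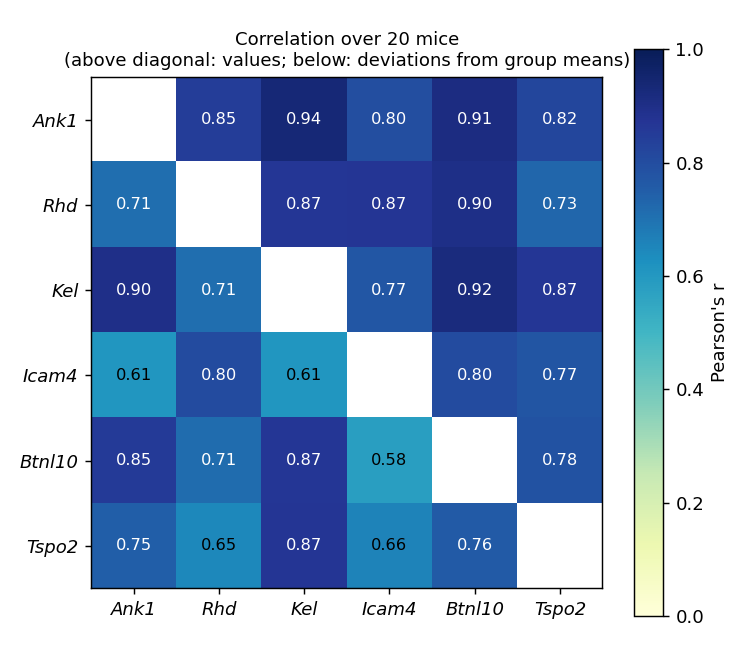
Pearson's r between each pair of the 6 genes over 20 mice (colour scale from 0 to 1, each value written in its cell; Rhd by probe 031C19). Cells above the diagonal use the mouse values and run from 0.73 to 0.94, and cells below it use deviations from the group means and run from 0.58 to 0.90, with day 5 mouse 4 included (0.19 to 0.81 without it).

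Genes outside the 6 with the most similar course over the mice were found among 3443 named genes measured in at least 16 mice with each member. Nearest to Btnl10 were Mgst3 (r = 0.95), Stom (0.90), which encodes the membrane protein stomatin, and Ubp1 (0.89). Nearest to Rhd probe 031C19 were Zfand6 (0.93), Cyb5a (0.91), the cytochrome b5 gene, and Ppox (0.90), a haem synthesis enzyme. Nearest to Icam4 were the glycine transporter gene Slc6a9 (0.91), the amino acid transporter gene Slc1a5 (0.90) and Tmem14c (0.87), which serves porphyrin import into mitochondria. Nearest to Tspo2 were Prnp (0.91), the prion protein gene, Slc6a9 (0.86) and Syngr1 (0.82). Without day 5 mouse 4, r with Tspo2 was 0.851 for Prnp and 0.859 for Slc6a9, so the first place of Prnp rests on that mouse. Ank1 was most like Slc6a9 (0.88), Xpo7 (0.87), a nuclear exportin, and Ormdl3 (0.86), and Kel most like Xpo7 (0.87), Mgst3 (0.87) and Slc6a9 (0.86). Slc6a9 and Syngr1 rest on 16 mice and the others on 20. Slc6a9 was thus among the nearest 3 for Ank1, Kel, Icam4 and Tspo2.

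The called genes of the wider erythroid lists went in both directions on days 1 and 2. Of 103 genes in 7 lists, 75 were on the array and 29 could be tested. On day 1, 4 were lower (Ppox, Tmem14c, Mgst3 and Gpx1), 5 higher (Alas2, Actb, Ube2l6, Ftl1 and Slc2a1) and 20 did not pass. Of all 5297 tested, 8.38% were then lower and 1012 changed in either direction. On day 2, 7 were lower, 3 higher and 19 did not pass, while 9.61% of all 5297 tested were lower. The share of all tested that was higher on day 2 is not given here, so nothing is read from the 3 higher genes. The median day 2 change of the 29 was -0.26, beside -0.98 for the 6 membrane and surface genes. On day 5, 0 of 29 passed by limma (5 at an unadjusted p under 0.05), where 2.62% of all tested changed in either direction.

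Those lower on day 2 included haem pathway genes, Ppox (-1.60 ± 0.21, limma adjusted p = 3.13e-05), Tmem14c (-1.03 ± 0.20, 0.0013) and Abcb10 (-0.85 ± 0.27, 0.0338), the last a mitochondrial transporter of erythroid cells. They also included the antioxidant enzyme genes Mgst3 (-1.998 ± 0.25, 1.51e-05), Prdx2 (-0.78 ± 0.22, 0.015) and Gpx1 (-0.67 ± 0.12, 0.000495), and Xpo7 (-0.56 ± 0.17, 0.0224). Higher on day 2 were Actb (1.19 ± 0.24, 0.00158), Ftl1 (0.62 ± 0.16, 0.012) and Slc2a1 (0.59 ± 0.12, 0.00197), which encode actin, a ferritin chain and a glucose transporter. Which cell types carried these falls and rises was not tested.

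Alas2, the erythroid haem gene, was called in the opposite direction to Icam4 and Btnl10 on day 1. It was higher by 1.36 ± 0.21 on the log2 scale (limma adjusted p = 0.000474), and on day 2 its difference from control was 0.58 ± 0.21 (adjusted p = 0.06). Ube2l6, a ubiquitin-conjugating enzyme of maturing red cells that interferon also induces, was higher by 0.73 ± 0.19 on day 1 (adjusted p = 0.0116). From day 2 to day 5 Alas2 was lower by 0.86 ± 0.21 (adjusted p = 0.00561), whereas Btnl10, Rhd probe 031C19, Icam4, Kel and Ank1 were higher.

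Among close partners of the 6, the Rh-associated protein gene Rhag had a day 2 difference of -0.30 ± 0.15 (limma adjusted p = 0.169), the butyrophilin-like Ermap -0.33 ± 0.24 (0.355) and the transferrin receptor gene Tfrc -0.46 ± 0.20 (0.115), and none of these passed. Tmod3, which caps actin filaments, had -0.26 ± 0.12 (0.143). Of the 5 transcription factors tested, 0 passed on any day by limma (2 at an unadjusted p under 0.05 on each of days 1, 2 and 5 against control). Klf1 had -0.60 ± 0.26 on day 2 (adjusted p = 0.122) and Gata1 -0.24 ± 0.16 (adjusted p = 0.317). The globin list had 2 measured genes, Hba-a1 (0.33 ± 0.26, adjusted p = 0.417) and Hba-x (0.04 ± 0.10, adjusted p = 0.852), and 0 of 2 passed, also unadjusted. Of the relatives of the 6, Icam2 was lower on day 1 (-0.34 ± 0.10, adjusted p = 0.0277) and Icam5 did not pass on any day.

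Other cell types moved over the same days. On day 2 the macrophage list was higher in 5 of 5 genes, among them C1qb (1.34 ± 0.31, limma adjusted p = 0.00458) and C1qa (1.27 ± 0.25, 0.00211), and the range of its mean per mouse was 0.66 to 1.42 against -0.39 to 0.20 in controls. Endothelial genes were higher in 3 of 5 (means 0.33 to 0.57 against -0.14 to 0.01) and megakaryocyte genes in 2 of 3 (0.32 to 1.40 against -0.44 to 0.15). Late neutrophil genes were lower in 4 of 7 (-1.09 to -0.68 against -0.06 to 0.19), B cell precursor genes in 2 of 2 (-1.97 to -0.64 against -0.08 to 0.56) and mitosis genes in 7 of 8 (-0.96 to -0.39 against -0.04 to 0.30). The mature B cell list had 1 of 3 higher and the granulocyte precursor list 0 of 2 changed on day 2. On day 1 the macrophage list was higher in 2 of 5 genes, endothelial in 2 of 5, mature B cell in 2 of 3, megakaryocyte in 1 of 3 and late neutrophil in 1 of 7, while mitosis genes were lower in 5 of 8, B cell precursor in 2 of 2 and granulocyte precursor in 2 of 2. On day 5 the mature B cell list was lower in 3 of 3 (among them Ms4a1, -1.79 ± 0.40, limma adjusted p = 0.0116), B cell precursor in 2 of 2 and late neutrophil in 2 of 7, and the granulocyte precursor list was higher in 1 of 2 (Prtn3, adjusted p = 0.000914). By limma 0 of the tested macrophage, megakaryocyte, endothelial and mitosis genes passed on day 5 (at an unadjusted p under 0.05, 4 of 5, 2 of 3, 0 of 5 and 0 of 8). The part of these shifts in the values of the 6 genes was not tested.

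The arrays themselves were uneven in coverage. Between 4079 and 7977 probes had a value per array, and the 2 arrays of a mouse correlated at 0.68 to 0.96, with no identical pair. Array medians lay between -0.015 and 0.007. On 36 arrays unusually many probes shared nearly 1 value, and the values of the 6 genes were never at it. The median difference between the 2 arrays of a mouse was 0.04 to 0.09 for their single probes and 031C19. The number of mice, 5 per group, limits the precision, and the median SE of a change was 0.13 over all tested.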

How the data were processed

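Marrow RNA of 20 mice was measured on 40 arrays with 2 dyes. The authors' deposited values, taken as log2 ratios of mouse (Cy5) over pool (Cy3) from the dyes per the labels, were used as they stand. The sources used here do not give the scanner, background correction, normalization, blank rule or log base. Extraction (Qiagen RNeasy Midi) and amplification (Ambion amino allyl) are named per the labels' protocols. Blanks made up 40.7% to 69.7% of each array and were not filled in.

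Of 13443 probes, 10032 had 1 symbol in the platform annotation, 170 several and 3241 no entry, and 10029 of the probes with 1 symbol matched RefSeq. The arrays of a mouse were averaged, then the probes of a symbol. Units with at least 3 mice in every group (5297 of 13027, of which 3926 named) were fitted in limma 3.58.1 (R 4.3.3), with 1 mean per group over 20 mice, empirical Bayes moderation and Benjamini-Hochberg adjustment over all 5297, at an adjusted p under 0.05. A second fit took 5392 single probes. Counts at an unadjusted p under 0.05 have a share of all tested at that threshold only for day 2 against day 1. The procedure was tested on simulated data. Summaries used Python 3.11.15 with pandas 2.3.3.

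The genes and lists were chosen with earlier results of these data known. Named beside the 6 genes are up to 4 genes per erythroid list with the largest called change on a day (the smallest p where none passed). Further erythroid genes were chosen after their values were seen. Up to 2 genes of other lists and the 3 genes most correlated with each member are also named. Promoter letters are from RefSeq.

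The labels number the mice 1 to 5 in every group but call them independently harvested, so the numbers were not taken as pairs. Same-numbered mice deviated together (r over 0.1) in 8 of 30 pairs (r from -0.391 to 0.33), and whether this exceeds chance was not tested.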

Additional observations from a re-analysis of the deposited data

Results flagged for a closer look

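Day 5 mouse 4 lay far from the other mice of its group, with a gap to its nearest neighbour above Dixon's critical value, in 5 of the 6 genes. Its log2 ratios were -1.582 for Ank1, -1.569 for Kel, -1.39 for Icam4, -1.968 for Btnl10 and -1.303 for Tspo2. For Rhd probe 031C19 its value of -1.634 was the lowest of the group but did not exceed that limit. Of 26 groups examined 5 were picked out, all of them on day 5, where chance picks about 1 in 20. The 5 genes share the same arrays, so these are not separate events.

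The change from control differed between day 2 and day 5, as tested directly by the limma contrast of the 2 days, in Ank1 (0.813), Kel (0.874), Icam4 (0.926), Btnl10 (1.499) and Rhd probe 031C19 (1.507), each the log2 difference of day 5 over day 2.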

How the results depend on the processing

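Shares of all then tested in this section count changes in either direction. The count of 6 lower genes on day 2 stayed between 4 and 6 when single mice were left out (shares 11.3% to 22.4%). It was 6 under every other setting tried. Its least steady members were Tspo2, which did not pass in 7 of 32 alternatives, and the Rhd average, in 3. No called change turned direction. For day 1 the count of 2 became 1 with technical replicate 1 only (866 of all 4889 then tested changed). When single mice were left out it ranged from 0 (without day 1 mouse 3 or 5) to 4 (without day 5 mouse 4). The shares of all then tested were 12.2% to 25.2%. It was 1 without control mouse 3 or 5 or day 1 mouse 2 or 4. For day 5 against day 1 the count of 0 became 1 with technical replicate 2 only (1213 of all 4934 then tested changed). It became 1 with quantile normalization too (1223 of 5297), and ranged from 0 to 6 without single mice (shares 19.7% to 30.2%). For day 2 against day 1 the count of 0 became 1 with only the 2 groups compared (52 of all 5987 then tested changed). Without single mice it ranged from 0 to 2 (shares 1.6% to 3.44%). For day 5 against day 2 the count of 4 ranged from 2 to 6 (shares 15.6% to 23.2% without single mice), and Icam4 lost its call in 9 of 32 alternatives. Day 5 mouse 4 is in neither group for day 1 against control or day 2 against day 1. Leaving it out kept those differences and changed the shared spread of the fit and the set of genes tested. The cause of the other shifts was not tested. With the mouse number as a replicate block the counts of called genes were 2, 6, 0, 0, 0 and 4 in the order day 1, day 2 and day 5 against control, day 2 against day 1, day 5 against day 1 and day 5 against day 2, and the F test passed in 4. The numbers are no pairing by the labels. Among mice of the other groups, 8 of 20 mice were most like one of their own number, and whether this exceeds chance was not tested. Blanks limit what can be read, since Rhd probe 009I18 gave no value and 017E20 gave values in 14 mice.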
